A study of Mus musculus with 16 samples.

Results

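The genes described here were chosen by name, and most encode molecules with which brain cells present antigen, tag material for removal or answer interferon. They are the MHC (H2-) genes with their partners B2m, Tap1, Tap2 and Tapbp, the complement genes C1qa, C1qb, C1qc, C3 and C4b, and the genes whose symbols begin with Ifi, Oas, or Irf, Stat or Gbp followed by a digit. Of 17293 genes in the table, 105 had such a name, and 62 of these had a mean deposited value of at least 0.3 CPM (read counts scaled to library size) over the 16 libraries. Among the 62 are genes that match by name alone, such as the IRF2-binding proteins, H2-Ke6 (an MHC region gene with another function) and the pseudogene H2-K2. The other 43 genes were below that minimum. Just outside it lay H2-Oa at 0.274 CPM, Ifi44 at 0.283 CPM and H2-Eb1 at 0.29993 CPM. Just inside it lay Gbp6 at 0.305 CPM, Ifitm1 at 0.325 CPM and Ifi47 at 0.354 CPM.

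The study asked how psychosocial stress of pregnant dams alters the amygdala of their offspring. Polyadenylated RNA from amygdalae microdissected at postnatal day 28 was sequenced in C57BL/6 mice (C57BL6/J in the study's methods) of both sexes, with 4 libraries in each of 4 groups. PS (prenatally stressed) males and PS females were carried by dams exposed to a chronic psychosocial stress paradigm, and CTRL males and CTRL females by dams left undisturbed. No transgene, deletion or drug is named for any group, and the libraries are called here by the numbers in their labels: LM17 to LM20 for CTRL males, LM21 to LM24 for CTRL females, LM25 to LM28 for PS males and LM29 to LM32 for PS females.

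MHC class I molecules are made of a heavy chain (H2-K and H2-D in the mouse) and beta-2 microglobulin, and they display peptides that the TAP transporter carries into the endoplasmic reticulum. C1q opens the classical complement cascade and is made in the brain mainly by microglia, where it marks synapses for removal. Viral nucleic acid activates IRF3, which switches on interferon genes, and interferon then acts through STAT factors and IRF9 on a promoter element called the ISRE, so that IFIT, IFITM, GBP and OAS proteins are made.

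The promoters of the members were read first, because one short sequence stood in them more often than in other genes. RefSeq promoters of assembly GRCm38.p6, from 250 bases before to 50 bases after each annotated start, were found for 49 of the 62 members. The ISRE-like letters, GAAA and again GAAA after any 2 bases, on either strand, stood in a promoter of 18 of the 49 members (36.7%), against 3.99% of all 27025 genes and 3.44% of all 32851 promoters of this length. The letters of the STAT element GAS, TTCNNNGAA, which read the same on both strands, stood in 10 of the 49 (20.4%), against 9.55% of all genes. As a yardstick, CCAAT or ATTGG stood in 22 of the 49 (44.9%), against 41.1% of all genes. None of these letters was counted as a site. Many members carry names given for their response to interferon, and relatives within a family count separately. The shares therefore describe the set and are no test of it.

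The promoters of 5 members, all on the plus strand, are printed 5′ to 3′: 3 that hold ISRE-like letters and come from different families, and those of Irf3 and Ifit2, which passed a test. Capitals mark the ISRE-like letters in Ifit3 (chr19:34583279-34583578, first letters 156 and 122 bases before the start), B2m (chr2:122147437-122147736, 139 bases before) and Gbp2 (chr3:142620413-142620712, 59 bases before). In Ifit2 (chr19:34550444-34550743) they mark the GAS letters, 241 bases before the start, and this promoter held no ISRE-like letters. Irf3 (chr7:44997398-44997697) held neither and is all in lower case.
Ifit3: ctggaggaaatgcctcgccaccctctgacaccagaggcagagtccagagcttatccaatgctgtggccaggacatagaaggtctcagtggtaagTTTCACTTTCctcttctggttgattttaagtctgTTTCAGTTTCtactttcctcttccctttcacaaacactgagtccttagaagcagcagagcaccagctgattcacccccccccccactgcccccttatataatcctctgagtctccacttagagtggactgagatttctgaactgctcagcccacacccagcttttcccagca
B2m: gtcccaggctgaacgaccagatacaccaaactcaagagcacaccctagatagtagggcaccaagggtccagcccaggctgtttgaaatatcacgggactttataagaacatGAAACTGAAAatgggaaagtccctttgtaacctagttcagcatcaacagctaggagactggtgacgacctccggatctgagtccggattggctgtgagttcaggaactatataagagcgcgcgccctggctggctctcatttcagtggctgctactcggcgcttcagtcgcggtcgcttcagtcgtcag
Gbp2: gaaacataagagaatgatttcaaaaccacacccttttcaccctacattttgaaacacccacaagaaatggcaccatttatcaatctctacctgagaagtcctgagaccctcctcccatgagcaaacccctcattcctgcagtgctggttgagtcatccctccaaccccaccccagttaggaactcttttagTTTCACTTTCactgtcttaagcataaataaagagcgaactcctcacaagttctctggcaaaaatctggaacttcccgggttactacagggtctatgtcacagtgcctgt
Ifit2: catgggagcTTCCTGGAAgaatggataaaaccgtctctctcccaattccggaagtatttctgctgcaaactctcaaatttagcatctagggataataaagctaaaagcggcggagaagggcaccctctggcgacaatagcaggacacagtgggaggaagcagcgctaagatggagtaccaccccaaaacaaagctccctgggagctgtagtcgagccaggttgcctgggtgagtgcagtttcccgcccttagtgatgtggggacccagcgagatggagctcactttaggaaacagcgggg
Irf3: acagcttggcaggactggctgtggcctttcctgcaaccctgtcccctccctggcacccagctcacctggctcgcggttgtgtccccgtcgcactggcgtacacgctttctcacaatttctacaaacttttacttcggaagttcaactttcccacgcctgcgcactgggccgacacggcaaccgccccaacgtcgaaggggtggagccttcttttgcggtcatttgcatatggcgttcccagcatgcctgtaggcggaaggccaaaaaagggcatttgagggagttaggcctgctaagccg
The letters clustered by family. They stood in all 4 GBP members with a promoter, in 6 of the 7 IFIT and RNA sensor genes (Ifit2 being the exception), in 2 of 5 IFITM genes (Ifitm2 and Ifitm3), in 2 of 5 non-classical class I genes (H2-T22 and H2-T23) and, of 3 peptide loading genes, only in B2m. One gene each held them among the IRF factors (Irf2), the STAT factors (Stat2) and the other Ifi genes (Ifi203), and no promoter of a classical class I, class II, complement, IRF2-binding protein or OAS member did.

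Levels are given as scaled CPM, the deposited CPM after TMM scaling, which evens out composition between libraries, and genes are compared with each other only per kilobase of exon. On that scale B2m, the class I light chain, led at 37.6 scaled CPM per kb, followed by Irf2bpl at 13.5, C1qb at 13.2 and C1qa at 11.1. The heavy chain genes were lower, with H2-D1 at 2.997 and H2-K1 at 1.99 scaled CPM per kb, and the transporter subunit gene Tap1 at 0.237. Only uniquely aligned reads were kept, so genes with close relatives may have lost reads, and the heavy chain levels are uncertain. Irf3 stood at 1.87, Ifit2 at 1.54, Irf7 at 0.126 and Gbp6 lowest of the 60 members with an annotated length.

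The families were represented unevenly. All 3 genes listed as classical class I were members, of which H2-L has no entry in the annotation used here. So were all 4 peptide loading genes, all 7 IFIT and RNA sensor genes and 8 of 9 IRF factors. Fewer were members elsewhere: only H2-DMa of 9 class II genes, Oasl2 of 8 OAS genes, 7 of 18 non-classical class I genes and 5 of 14 other Ifi genes. H2-Aa and H2-Ab1, the chains of the class II molecule I-A, averaged 0.167 and 0.154 scaled CPM, and C3, the central complement component, averaged 0.0490. H2-Bl, H2-Eb2 and Ifi213 were listed at 0 in all 16 libraries. Lymphocyte marker genes were likewise near 0: of 11 listed, 6 were in the table, all under 0.5 CPM, with sums of 0.116 to 0.308 scaled CPM in the 16 libraries.

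**Figure D1:**
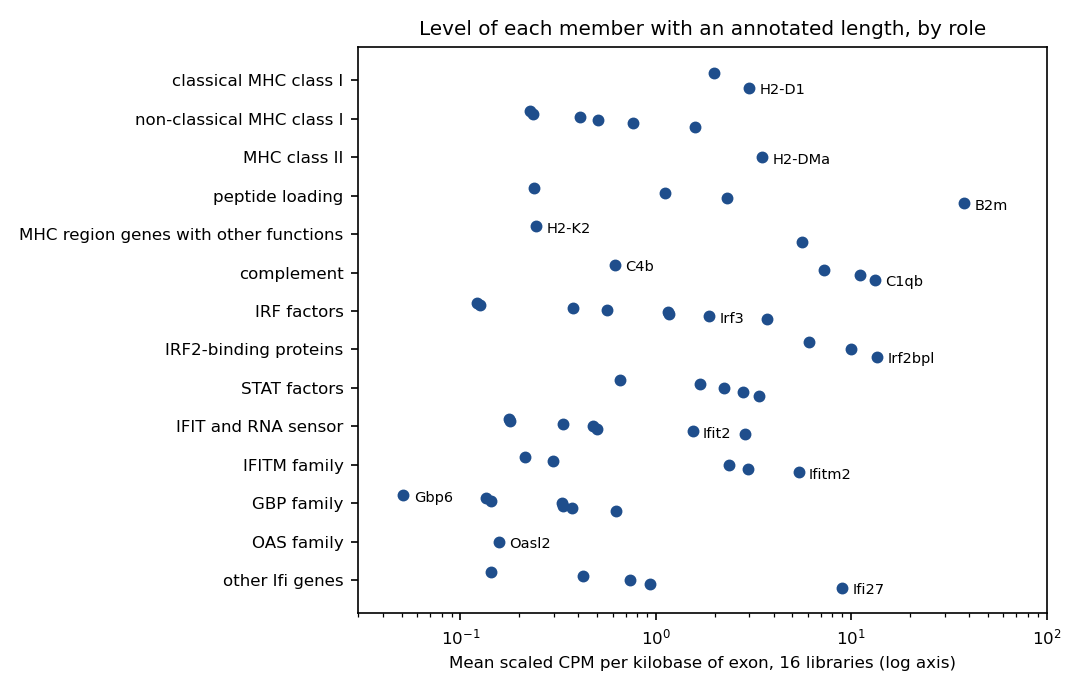
Mean level of each member with an annotated length, in scaled CPM per kilobase of exon on a log axis, grouped by role. B2m leads at 37.6, and the complement C1q genes (7.26 to 13.2) stand above the class I heavy chains. The heavy chain levels are uncertain because only uniquely aligned reads were kept.

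Libraries summed to between 39989993 and 44275406 corrected reads, no library went against its sex label, and pairs of libraries within a group correlated at 0.99 to 0.998 across genes. Variation within groups had been taken out of these values along 2 directions, so the correlations do not show how alike the dissections were. The labelled tissue was checked with marker lists, and the neuronal list summed to at least 7120 scaled CPM in every male library. LM25 and LM28, both PS males, stood apart in hippocampal neuron markers, at 2855 and 3139 scaled CPM, where the other PS males had 1379 and 1346 and the CTRL males 1073.5 to 1732. PS male sums were also 473 to 1023 for oligodendrocyte markers, against 268 to 516 in CTRL males, and 357 to 405 for endothelial and pericyte markers, against 324 to 358. Markers of central amygdala and intercalated neurons were lower, with sums of 161, 261, 281 and 218 scaled CPM in PS males against 288, 386, 363 and 331 in CTRL males, without overlap. Of their 9 genes tested in males 1 was positive and 1 fell (Tshz1), and the median log2 fold change was -0.82, against 0.01 for all genes. The female sums were 269 to 304 scaled CPM in CTRL and 279 to 473 in PS. The part of these shifts in the member results was not tested. Calls of the male comparison are given without LM25 and LM28 as well, a fit in which no gene passed, Tshz1 included. In bulk tissue, fewer cells of a type and less RNA per cell cannot be told apart.

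In males, Irf3 was the 1 member that passed the test for a PS effect. A member passed when its adjusted p was under 0.05 (limma across all genes tested, Benjamini-Hochberg), which 3.44% of the 14309 genes tested did (0.881% higher and 2.56% lower). Fold changes are on the log2(scaled CPM + 0.5) scale, which understates those of low genes. Members under a mean of 0.5 CPM in both compared groups were not tested, and Gbp6, Ifi47 and Ifitm1 were tested only with that filter off. Of the 58 members tested, 1 rose and 0 fell, and none also had a fold change over 1.5, the study's threshold for a differentially expressed gene, which 1.01% of all genes tested met. At an unadjusted p under 0.05 stood 12 of 58 members (20.7%), against 25.7% of all genes. The members' median log2 fold change was 0.07, against 0.01 for all genes tested, with 37 of 58 positive (63.8%, against 51.8%). In 13 members the PS and CTRL male libraries did not overlap, against 22.2% of all genes tested. Higher were 7, among them Irf3, Ifit2, Ifitm3, Ifi27, Tap2 and H2-Ke6, against 10.2%, and lower were 6 (C1qa, C1qb, C1qc, H2-DMa, Irf2bpl and Stat5b), against 12.1%. The shares called, at unadjusted p and without overlap were thus near or under the background.

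The count depended on single libraries. It was 0 without LM18, LM19 or LM20 (CTRL males), without LM25 (PS male) and without LM25 and LM28 together. It was 2 without LM31 or LM32 and 3 without LM30, PS females that enter only through the shared fit. Without LM30, H2-DMa and Ifi27 passed beside Irf3. With the removed directions left out of the model the count was 4, and with only the compared groups fitted it was 6. Over all genes, 492 passed in the main fit and 49, 83, 51 and 52 without LM18, LM19, LM20 and LM25. Without LM25 and LM28 together 0 passed, and without LM30, LM31 and LM32 the numbers were 1066, 956 and 1429. They were 1687 with the removed directions left out and 1920 with only the compared groups fitted.

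**Figure D2:**
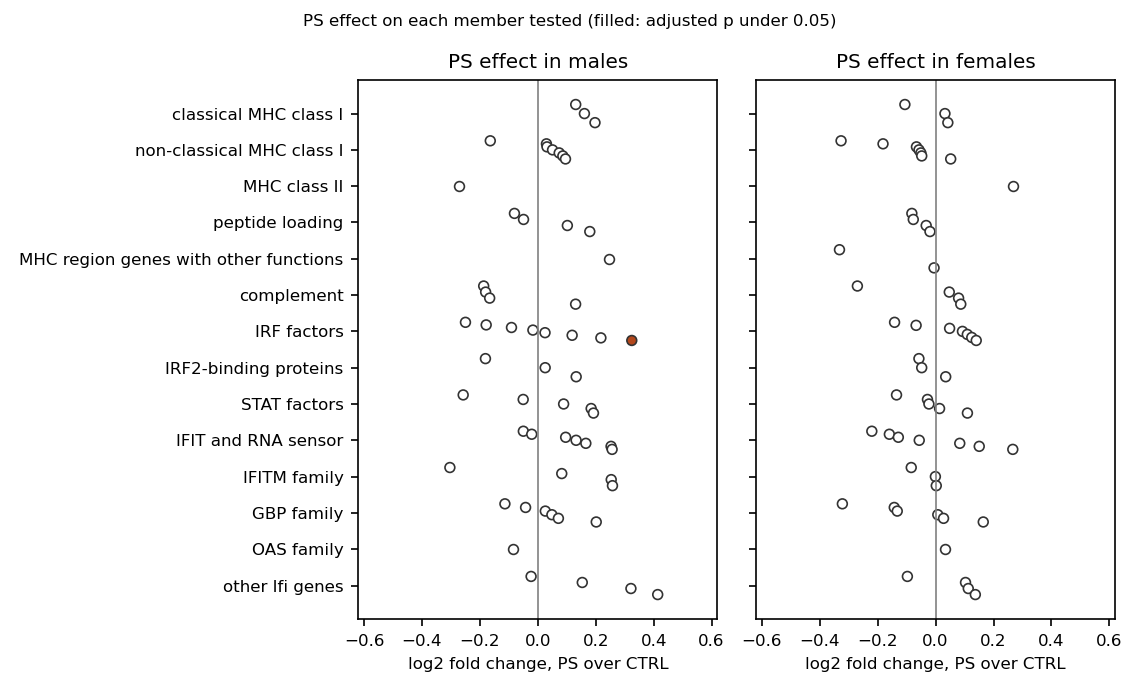
Log2 fold change of PS over CTRL (horizontal axis) for each member tested, one point per member by role, in males (left) and females (right), filled where the adjusted p was under 0.05. Irf3, at 0.32 in males, is the only filled point, and the class II member H2-DMa sits at -0.27 in males and 0.27 in females.

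Irf3 encodes the factor that starts interferon production, and its gene lies at chr7:44997648-45002848. CTRL males had 6.19, 5.63, 5.71 and 5.57 scaled CPM, and PS males 7.74, 7.300000, 7.02 and 7.36. Every PS male library was above every CTRL male library, and the means were 5.77 ± 0.281 and 7.35 ± 0.296 scaled CPM (SD, n = 4). The rise was 1.25-fold, a log2 fold change of 0.32 (SE 0.07, 95% interval 0.17 to 0.48, adjusted p = 0.0432). CTRL females had 5.95, 6.41, 5.94 and 6.52 scaled CPM and PS females 6.14, 7.03, 5.85 and 6.75, so the female groups overlapped, with a log2 difference of 0.05 (adjusted p = 0.813). The difference between the effects in the sexes was 0.28 (95% interval 0.06 to 0.49, adjusted p = 0.118), which did not pass.

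The Irf3 call sat close to the threshold. It held in 20 of the 26 settings tried, with an adjusted p of 0.0651, 0.0617 and 0.0723 without LM18, LM19 and LM20, 0.0751 without LM25, 0.121 without LM25 and LM28, and 0.0538 with no filter on low values. Exons of Irf3 share 88 bases with Bcl2l12 on the opposite strand. Bcl2l12 averaged 0.302 scaled CPM, and whether the counting used strand is not given in the sources used here.

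No other IRF or STAT factor passed. Stat5b, a factor that acts in growth hormone and cytokine signalling, was lower in PS males: 9.22, 10.3, 9.94 and 10.3 scaled CPM in CTRL males and 8.54, 8.497, 8.64 and 7.26 in PS males, without overlap (log2 difference -0.26, SE 0.08, adjusted p = 0.0825). Its female groups, 10.4, 8.99, 10.1 and 9.26 scaled CPM in CTRL and 10.4, 8.78, 8.65 and 10.2 in PS, overlapped (log2 difference -0.03).

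Irf9, the DNA-binding partner of STAT factors, spread widely, with 6.19, 7.401, 6.14 and 3.95 scaled CPM in CTRL males and 6.96, 7.97, 5.85 and 6.62 in PS males. In females it had 4.88, 5.702, 6.42 and 6.57 scaled CPM in CTRL and 5.93, 7.43, 7.26 and 5.08 in PS. Both pairs of groups overlapped, with log2 differences of 0.22 (adjusted p = 0.443) and 0.11 (0.826). Irf7, which amplifies interferon production, was low: 0.379, 0.503, 0.432 and 0.494 scaled CPM in CTRL males, 0.779, 0.527, 0.382 and 0.480 in PS males, 0.469, 0.260, 0.549 and 0.425 in CTRL females and 0.405, 0.823, 0.358 and 0.349 in PS females. LM25 and LM30 held its highest values, and the groups overlapped (log2 difference in males 0.12, adjusted p = 0.684). Irf8, a factor of the microglial lineage, had 2.82, 2.85, 2.52 and 3.06 scaled CPM in CTRL males and 2.71, 2.15, 2.82 and 2.78 in PS males. Its female values were 2.602, 2.48, 2.62 and 2.93 scaled CPM in CTRL and 2.98, 2.47, 2.36 and 2.28 in PS. Groups overlapped in both sexes, with log2 differences of -0.09 and -0.07 (adjusted p = 0.602 and 0.815).

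**Figure D3:**
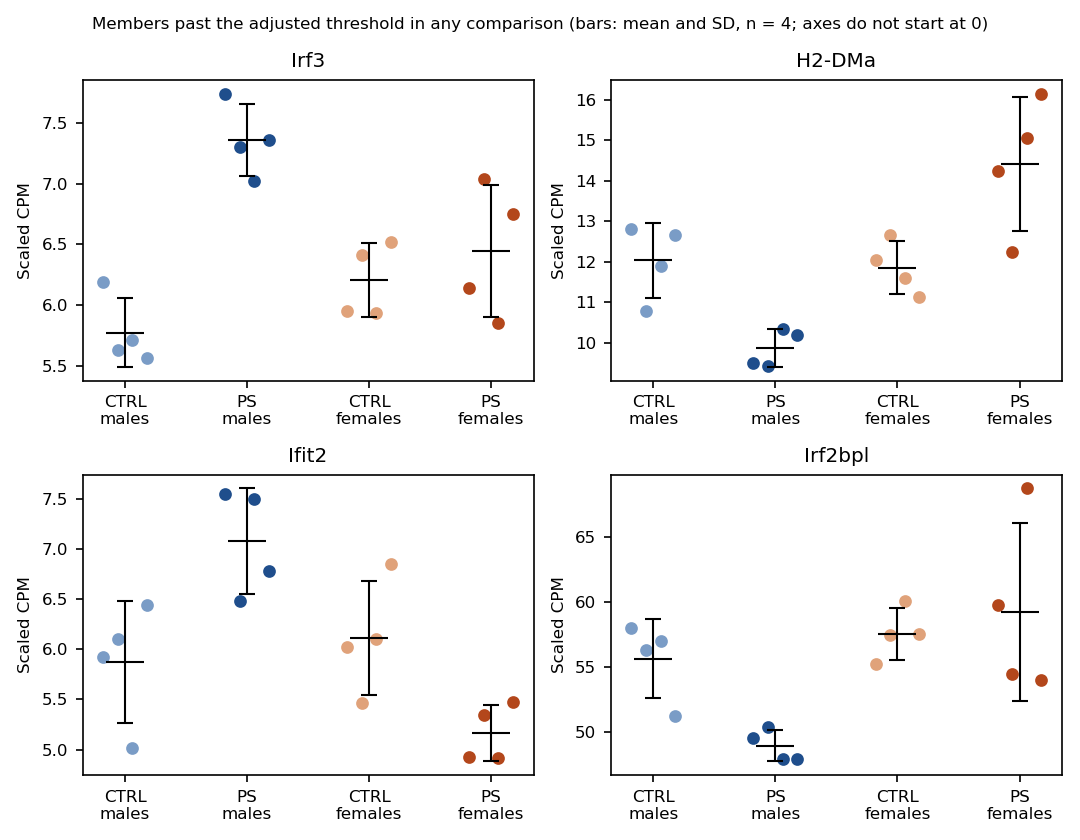
Scaled CPM in each of the 16 libraries for the members that passed the test in a comparison, by group, with bars for the mean and SD (n = 4) and axes that do not start at 0. The PS male points of Irf3 (7.02 to 7.74) lie above the CTRL male points (5.57 to 6.19), and the PS female points of H2-DMa (12.2 to 16.2) above the PS male points (9.43 to 10.3).

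The C1q genes were lower in PS males in every library, without passing the test. C1qa, C1qb and C1qc encode the chains of the C1q molecule and lie next to each other on chromosome 4. C1qa had 12.1, 11.6, 12.9 and 11.6 scaled CPM in CTRL males and 9.89, 10.2, 10.9 and 11.1 in PS males. C1qb had 15.6, 14.6, 15.9 and 14.99 and 12.9, 12.6, 13.9 and 14.3, and C1qc 14.6, 14.6, 15.3 and 14.99 and 12.1, 12.7, 14.3 and 13.7. For each chain all PS male libraries lay under all CTRL male libraries. The log2 differences were -0.19 for C1qa (SE 0.07, adjusted p = 0.134), -0.18 for C1qb (SE 0.08, 0.175) and -0.17 for C1qc (SE 0.06, 0.133).

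In females the same chains did not separate. C1qa had 12.05, 12.2, 10.1 and 12.5 scaled CPM in CTRL females and 11.9, 12.8, 11.8 and 11.9 in PS females, C1qb 14.2, 14.9, 11.6 and 14.9 and 15.2, 15.6, 14.1 and 14.1, and C1qc 13.9, 13.9, 12.2 and 14.4 and 14.001, 14.5, 14.2 and 14.8. LM23, a CTRL female, was the lowest female for all 3, and the log2 differences were 0.05, 0.09 and 0.08 (adjusted p = 0.824, 0.673 and 0.631). The differences between the sexes' effects, -0.23, -0.27 and -0.25, had adjusted p of 0.184, 0.165 and 0.124 and did not pass.

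Microglial markers stood lower beside them. The sum of the 13 microglial markers was 249, 279, 280.0 and 276 scaled CPM in CTRL males and 198, 219, 246 and 243 in PS males, so these groups did not overlap. All 13 had a negative log2 fold change in males, with a median of -0.26, and 1 of them fell: Cx3cr1, the fractalkine receptor, by a log2 fold change of -0.39 (adjusted p = 0.0437). In females the sums were 250.2 to 260 scaled CPM in CTRL and 236 to 258 in PS. The part of the markers in the C1q values was not tested.

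**Figure D4:**
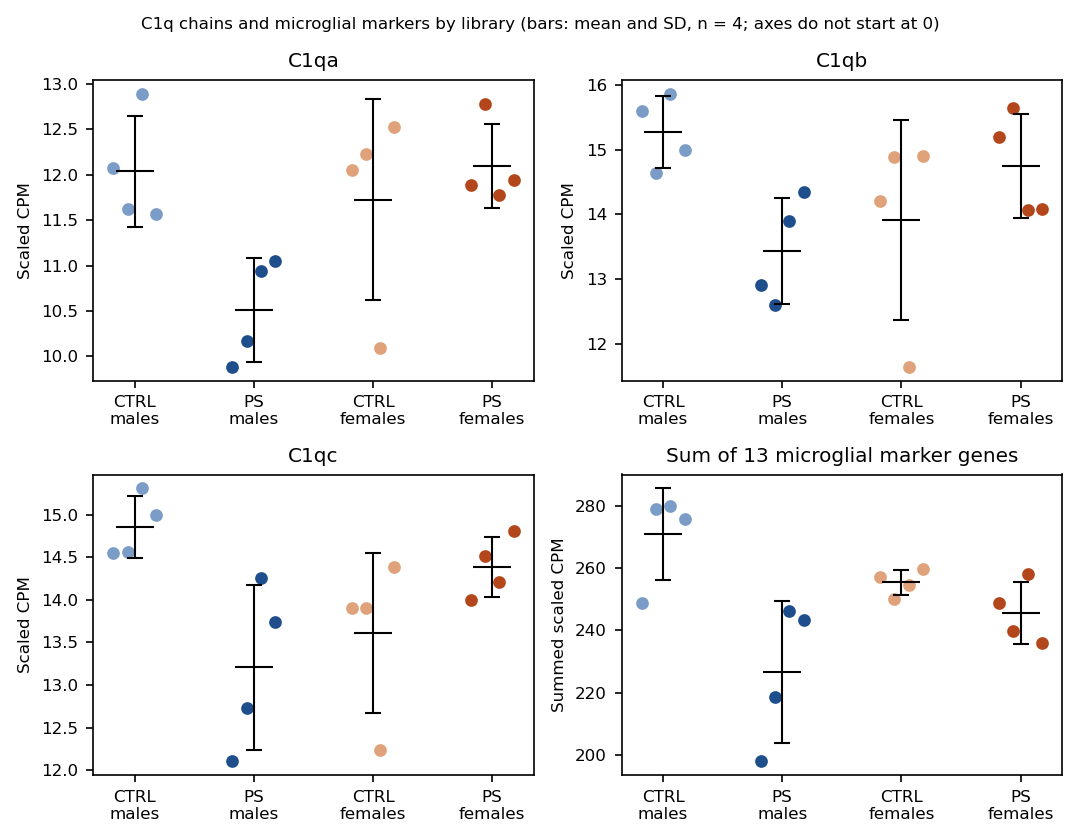
Scaled CPM of C1qa, C1qb and C1qc and the sum over the 13 microglial markers (vertical axes, which do not start at 0) in each library by group, with bars for the mean and SD (n = 4). In each panel the PS male points lie under all CTRL male points, for the marker sum at 198 to 246 against 249 to 280.0.

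C4b, the complement component that C1q leads to cleave, did not share the C1q pattern. It had 3.698, 3.04, 3.14 and 3.55 scaled CPM in CTRL males, 3.52, 3.11, 3.796 and 4.56 in PS males, 2.95, 4.897, 2.65 and 4.91 in CTRL females and 3.33, 3.9998, 2.58 and 2.33 in PS females. All groups overlapped, the log2 difference in males was 0.13 (SE 0.20, adjusted p = 0.7099), and its within-group SD, 0.28 on the log2 scale, was the second highest among members after Ifit1 (0.29).

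Classical class I genes had positive log2 differences in males, none of which passed. H2-K1 had 5.57, 4.93, 5.23 and 6.698 scaled CPM in CTRL males and 7.46, 5.82, 5.97 and 6.74 in PS males. In females it had 6.07, 6.17, 4.58 and 6.495 in CTRL and 5.45, 7.46, 4.299 and 4.61 in PS. H2-D1 had 8.27, 7.02, 8.26 and 7.57 scaled CPM in CTRL males, 10.5, 8.02, 7.64 and 9.06 in PS males, 7.59, 7.24, 5.63 and 7.61 in CTRL females and 7.91, 9.39, 6.02 and 5.96 in PS females. All groups overlapped, with male log2 differences of 0.20 (adjusted p = 0.452) and 0.16 (0.517). H2-D1 and H2-L kept a ratio of 1.73 to 1.93 in all 16 libraries, and H2-T22 and H2-T9 one of 1.18 to 1.34. H2-L and H2-T9 have no entry in the annotation used here, and whether the reads given to H2-L come from H2-D1 was not tested. Reads that match both genes of a pair could have been split or dropped by the unique-alignment rule, so each gene's own level is uncertain.

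B2m had 32.3, 28.8, 33.8 and 31.5 scaled CPM in CTRL males, 37.8, 33.96, 32.95 and 31.1 in PS males, 33.01, 31.7, 28.4 and 35.5 in CTRL females and 31.2, 35.9, 28.2 and 31.6 in PS females. Tap1 had 1.19, 1.29, 1.2002 and 1.598, 1.34, 1.22, 1.19 and 1.103, 1.52, 1.35, 1.22 and 1.44 and 1.29, 1.53, 1.15 and 1.16 scaled CPM in the same order of groups. Neither separated any groups, and the male log2 differences were 0.10 (adjusted p = 0.493) and -0.08 (0.661). Tap2, the other transporter subunit, was without overlap in males at a log2 difference of 0.18 (adjusted p = 0.341). Of the 7 non-classical class I members, 6 had positive male values, none passed and none was without overlap. H2-M5, among the smallest p-values in females, had 1.196, 1.68, 0.954 and 1.42 scaled CPM in CTRL females and 0.691, 1.04, 0.764 and 1.304 in PS females, against 1.26, 0.886, 1.06 and 0.987 in CTRL males and 0.991, 1.12, 1.098 and 1.17 in PS males. Its female log2 difference of -0.33 (adjusted p = 0.391) did not pass, and the groups overlapped.

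Interferon-stimulated genes had values in both directions in males and none passed. At the ends stood Ifi203, a DNA-binding protein of the PYHIN family, at a log2 difference of 0.41 (adjusted p = 0.147), and Ifitm7 at -0.30 (0.128), both named after their values were seen. Ifi27, an interferon-induced mitochondrial protein, had 11.5, 10.8, 12.9 and 10.2 scaled CPM in CTRL males and 14.3, 13.5, 13.3 and 16.1 in PS males, without overlap (log2 difference 0.32, SE 0.11, adjusted p = 0.0895). Its female values, 14.5, 13.4, 12.5 and 14.998 scaled CPM in CTRL and 12.05, 15.9, 12.5 and 11.5 in PS, overlapped (log2 difference -0.10). Ifitm3, which blocks entry of enveloped viruses, had 1.85, 1.48, 1.94 and 1.998 scaled CPM in CTRL males and 2.595, 2.06, 2.08 and 2.35 in PS males. The male groups of Ifitm3 did not overlap, at a log2 difference of 0.26 (SE 0.15, adjusted p = 0.282). In females it had 1.83, 1.85, 1.72 and 2.41 scaled CPM in CTRL and 1.74, 2.7998, 1.58 and 1.79 in PS, with overlap.

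Ifit3, an RNA-binding antiviral protein whose promoter holds the ISRE-like letters in 2 places, had 0.8297, 0.958, 0.768 and 0.893 scaled CPM in CTRL males and 1.298, 0.933, 0.836 and 0.935 in PS males. In females it had 0.727, 0.568, 0.739 and 0.874 in CTRL and 0.762, 1.41, 0.549 and 0.838 in PS. Groups overlapped, with male and female log2 differences of 0.13 and 0.15 (adjusted p = 0.643 and 0.731). Gbp2, an interferon-induced GTPase, had 0.996, 0.934, 0.864 and 1.199 scaled CPM in CTRL males, 1.04, 0.7898, 0.955 and 1.03 in PS males, 0.844, 0.946, 0.811 and 1.25 in CTRL females and 0.8096, 1.15, 0.7404 and 0.652 in PS females. Oasl2, a relative of the RNA-sensing oligoadenylate synthetases, had 1.04, 1.05, 1.08 and 1.22, 1.13, 0.814, 0.931 and 1.17, 0.867, 0.733, 1.002 and 1.09 and 0.929, 1.39, 0.693 and 0.861 scaled CPM in that order. Groups of both overlapped, at male log2 differences of -0.04 (adjusted p = 0.867) and -0.09 (0.737).

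Over all members with a promoter, the median male log2 fold change was 0.09 for the 18 with ISRE-like letters, 13 of them positive, and 0.03 for the 29 tested of the 31 without, 16 of them positive. In females the medians were 0.00 over 18 and 0.01 over 27. The 5 calls made in the 5 comparisons, with H2-DMa counted more than once, were of members without those letters, as were 31 of the 49 members. Calls this few cannot show whether passing depends on the letters.

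In females no member passed for the PS effect, and neither did any other gene in this limma fit. The study's own edgeR analysis of these libraries did call a few genes in females, Dbh and Slc6a5 among them. It also found Dbh higher by qPCR, and called more genes in males than met its thresholds here. Of 57 members tested with limma, 0 passed (background 0%), with 3 at an unadjusted p under 0.05 (5.26%, against 12.7% of all genes), namely H2-DMa, H2-M5 and Ifit2. No member's PS and CTRL female libraries were without overlap, against 7.54% of all genes tested (3.48% higher and 4.07% lower). The median log2 fold change was -0.02, with 26 of 57 positive. The count stayed 0 in all alternatives run. In the other comparisons no member met the fold change criterion as well, which 0% of all genes met for the PS effect in females, 0.0562% between the sexes in CTRL, 2.09% between the sexes in PS and 1.61% for the difference between the sexes' effects.

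H2-DMa was the member whose PS effect differed between the sexes. It encodes a chain of H2-M, which helps load peptides onto class II molecules, and its gene lies at chr17:34119541-34139101. CTRL males had 12.8, 10.8, 11.9 and 12.7 scaled CPM and PS males 9.51, 9.43, 10.3 and 10.2. CTRL females had 12.05, 12.7, 11.6 and 11.1 and PS females 14.2, 12.2, 15.1 and 16.2. The PS males were under all CTRL males, 3 of the 4 PS females were above all CTRL females, and all PS females were above all PS males. The log2 difference was -0.27 in males (SE 0.09, adjusted p = 0.0783) and 0.27 in females (SE 0.09, adjusted p = 0.281), neither past the threshold alone. The difference between them was -0.54 (SE 0.12, 95% interval -0.80 to -0.28, adjusted p = 0.0446).

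Across that comparison of effects, 1 of 59 members passed, lower, against 4.11% of all genes (1.31% higher and 2.79% lower), and 9 (15.3%) had an unadjusted p under 0.05, against 24.6%. The members' median was 0.08 and 36 of 59 were positive, against 51.4% of all genes. The count was 0 without LM20, LM24 or LM31, when H2-DMa had adjusted p of 0.0534, 0.0598 and 0.0516, and it was 4 without LM30, when Ifi27 and Ifit2 were among those that passed too. It was 2, with Ifit2, without LM17, LM21, LM22, LM23, LM26, LM28 or LM29. Over all genes, 164, 116 and 182 passed without LM20, LM24 and LM31 and 1488 without LM30, against 591 in the main fit. In the fits that gave 2 members, 394 to 1407 of all genes passed. H2-DMa passed in 20 of 25 settings. Ifit2 came next, with a difference of 0.47 (SE 0.13, adjusted p = 0.0535).

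H2-DMa shares 360 exonic bases with Brd2 on the opposite strand, a gene at 152 to 203 scaled CPM. Brd2 itself had log2 differences of 0.04 in males (adjusted p = 0.785), -0.05 between PS females and PS males (0.648) and 0.03 between the sexes' effects (0.898). Border macrophage markers, cells that carry class II, summed to 13.6 to 17.8 scaled CPM in PS males and 10.2 to 16.5 in PS females, overlapping, and 3 of the 8 were under 0.5 CPM in mean. Most microglial markers had the same sign as H2-DMa, except for the PS effect in females. There 6 of the 13 were positive, with a median log2 fold change of -0.03, against 0.27 for H2-DMa. Of the 13, all were lower in PS than in CTRL males, 11 were higher in PS females than in PS males (1 passed), and 2 had a positive difference between the sexes' effects, against 51.4% of all genes. That difference had a median of -0.26, against 0.01 for all genes, with 5 of 13 at an unadjusted p under 0.05 and none past the threshold. The part of either marker list in the result was not tested.

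PS females differed from PS males in 3 members. Of 57 tested, 2 were higher (H2-DMa and Irf2bpl) and 1 lower (Ifit2), against 13.1% of all genes tested (7.58% higher and 5.53% lower). At an unadjusted p under 0.05 stood 8 (14%), against 32.3%, and 5 were without overlap, against 22%. The median was -0.04. Tissue markers differed between these groups as well. All 9 oligodendrocyte markers were lower in PS females, with a median log2 difference of -1.09, and 10 of 12 hippocampal neuron markers were lower, with a median of -0.75. All 9 central amygdala and intercalated neuron markers tested were higher, with a median of 0.39, where 49.6% of all genes were. The part of these markers in the member results was not tested. H2-DMa was 1.43-fold higher in PS females (log2 0.52, SE 0.09, adjusted p = 0.00935) and passed in all 26 settings, with adjusted p of 0.00142 to 0.0182. Without LM30 the count was 7, with 5 lower, as Gbp3, H2-K1 and Irf3 were among those that passed as well, and the median was -0.12. Over all genes, 2659 of 14309 then passed, against 1877 of 14316 in the main fit.

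Ifit2, an interferon-induced protein of the IFIT family, lies at chr19:34550694-34576419. PS males had 7.55, 6.49, 7.497 and 6.79 scaled CPM and PS females 4.93, 5.34, 4.92 and 5.47. All PS females were under all PS males, with a log2 difference of -0.42 (SE 0.09, adjusted p = 0.0152), which passed in all 26 settings (0.00447 to 0.0272). CTRL males had 5.93, 6.11, 5.02 and 6.44 scaled CPM and CTRL females 6.02, 5.46, 6.11 and 6.85. These overlapped, and the PS effect was 0.25 in males (adjusted p = 0.109) and -0.22 in females (0.343).

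Irf2bpl encodes a nuclear protein related to the partners of the repressor IRF2 and lies at chr12:86880701-86884798. PS males had 49.6, 50.4, 47.97 and 47.98 scaled CPM and PS females 59.8, 54.5, 68.7 and 54.01, with no overlap (log2 difference 0.27, SE 0.07, adjusted p = 0.0288). CTRL males had 57.99, 56.3, 57.01 and 51.2 and CTRL females 55.2, 57.5, 60.1 and 57.5 scaled CPM. PS males were also under all CTRL males, at -0.18 (adjusted p = 0.131). The call was lost with the deposited CPM unscaled (0.0652), with only the compared groups fitted (0.0502) and without LM25 and LM28 (0.0631). Irf2bp2, of the same family, had 31.5, 30.9, 31.1 and 27.5 scaled CPM in CTRL males, 34.2, 33.9, 30.5 and 34.2 in PS males, 25.3, 33.4, 30.8 and 32.8 in CTRL females and 33.3, 31.9, 31.98 and 21.9 in PS females, with overlap everywhere (male log2 difference 0.13, adjusted p = 0.5202).

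Ifitm1, a member of the interferon-induced transmembrane family, is described because it passed with the filter on low values off, after its values were seen. It had 0.401, 0.503, 0.382 and 0.408 scaled CPM in PS males and 0.286, 0.353, 0.287 and 0.233 in PS females, lower without overlap, at a log2 difference of -0.23 (SE 0.07, adjusted p = 0.0456 with limma over 17014 genes, of which 9.73% passed). In CTRL males it had 0.379, 0.431, 0.384 and 0.353 and in CTRL females 0.141, 0.237, 0.191 and 0.213, also lower without overlap, at -0.35 (adjusted p = 0.118). These levels rest on few reads. Gbp6 and Ifi47 did not pass in any comparison with the filter off.

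Among CTRL mice no member passed between the sexes. With limma 0 of 57 passed, against 0.0702% of all genes (0.0351% higher and 0.0351% lower in females), and the smallest adjusted p among members was 0.868. Unadjusted p was under 0.05 in 5 (8.77%, against 5.54%). H2-M3, which presents formylated peptides, was higher without overlap, with 0.711, 0.599, 0.7201 and 0.564 scaled CPM in CTRL males and 0.7501, 0.923, 0.835 and 0.968 in CTRL females (log2 difference 0.25, adjusted p = 0.868). C1qc (-0.12) and the lysosomal thiol reductase gene Ifi30 (-0.21) were lower without overlap, so that 3 members were, against 4.61% of all genes (2.49% higher and 2.11% lower). The pseudogene H2-K2 had 0.403, 0.287, 0.216 and 0.423 scaled CPM in CTRL males and 0.609, 0.875, 0.310 and 0.638 in CTRL females, overlapping, at a log2 difference of 0.40 (adjusted p = 0.868). In PS mice it had 0.354, 0.263, 0.382 and 0.432 in males and 0.357, 0.447, 0.215 and 0.466 in females, and H2-M3 had 0.661, 0.718, 0.573 and 0.743 and 0.548, 0.965, 0.669 and 0.675. Neutrophil and erythroid markers stood apart between these CTRL groups, with sums of 34.3 to 44.7 scaled CPM in males and 8.31 to 23.9 in females. All 7 of these tested were lower in females without overlap, with a median log2 difference of -1.44, and none passed. Also lower in females were all 13 microglial markers (median -0.09), all 5 border macrophage markers tested (-0.24) and all 9 oligodendrocyte markers (-0.41). In contrast, 11 of 13 endothelial and pericyte markers were higher (0.09), where 49.3% of all genes were. None of these passed. The part of these marker lists in the values of the members was not tested.

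Single libraries stood high or low in many members at once. Relative to each member's mean over the 16 libraries, LM30, a PS female, was above in 56 of 62 members, with a median deviation of 0.14 on the log2 scale. Of the 14169 genes above 0.5 CPM, 7151 were above in LM30 in these scaled values, with a median of 0.001. In LM25, LM23, LM31 and LM32 the numbers over these genes were 7089, 7330, 7147 and 7146. All 18 members with ISRE-like letters were above in LM30 (median 0.21), as were 25 of the 31 without (0.12). LM25, a PS male, was above in 14 of the 18 (0.18) and in 19 of the 31 (0.03). LM23, a CTRL female, and LM31 and LM32, PS females, were low, with 15 of 62 members above in each. In these 5, 4 and 4 of the 18 were above (medians -0.12, -0.11 and -0.07). For the classical class I genes the medians ran from -0.41 in LM23 to 0.41 in LM25, with LM30 at 0.30. Meningeal fibroblast markers summed to 1111 scaled CPM in LM25 and 731 in LM30, against 561, 406 and 322 in LM23, LM31 and LM32. They also stood high, at 811, 963 and 999, in the CTRL females LM21, LM22 and LM24. The part of these markers in the deviations was not tested.

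**Figure D5:**
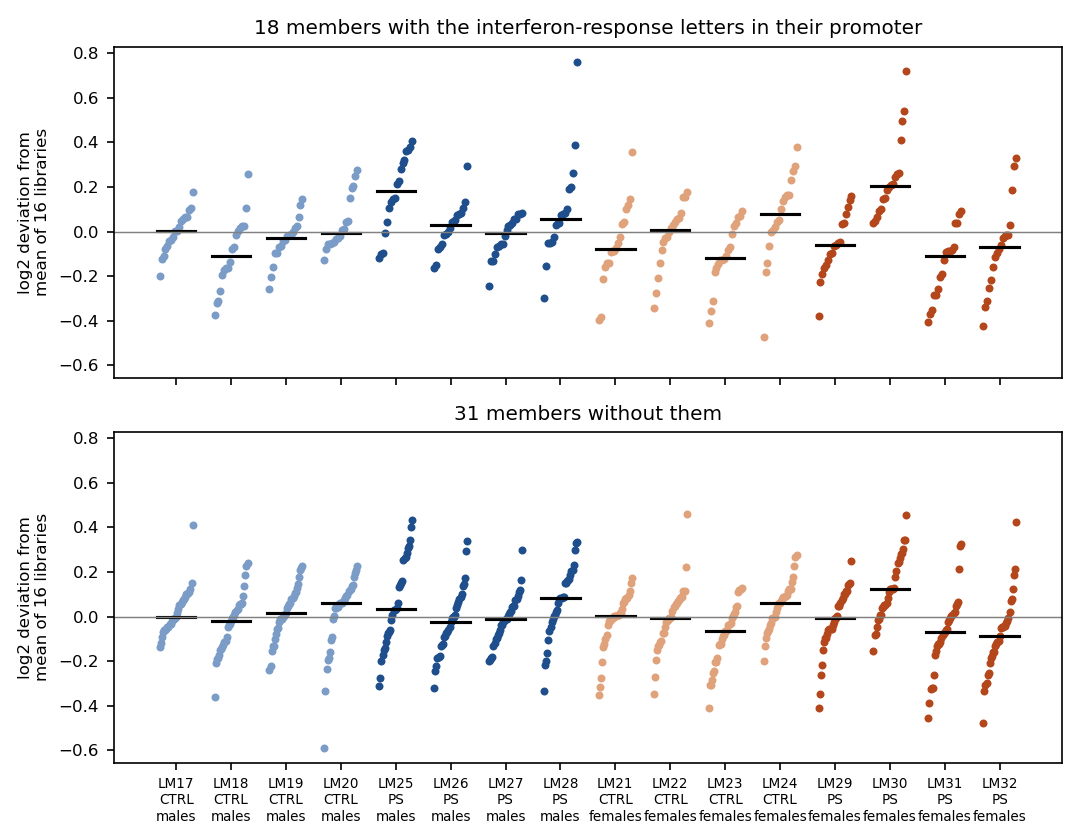
Deviation of each member from its mean over the 16 libraries, on the log2 scale (points), with the median in each library (bars), for the 18 members with ISRE-like letters in a promoter and the 31 without. LM30 has the highest median for the members with the letters (0.21), and LM23 the lowest (-0.12).

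Correlations between members over the 16 libraries, after subtracting group means, are given as a description, since all genes share the libraries and their removed directions. The median r was 0.87 among classical class I genes, 0.78 among complement genes, 0.61 among peptide loading genes and 0.50 among GBP genes. IRF and STAT factors were close to 0, at 0.08 and 0.10, and the IRF2-binding proteins stood at -0.17. Over all 140 pairs within a role the median was 0.31, against 0.28 over 1751 pairs across roles. Members with ISRE-like letters had a median r of 0.40 over 153 pairs, of which 116 were positive, and those without one of 0.18 over 465 pairs. The closest pairs from different families were H2-K1 with Tap2 (0.89), Gbp5 with Ifitm2 (0.89) and C4b with Tap2 (0.88). C1qc with Irf5 and Ifit3 with Irf7 each reached 0.86. H2-D1 with H2-L (0.98) and H2-T22 with H2-T9 (0.96), whose sequences were not compared here, were closer still. C1qa with C1qb (0.93) kept a ratio of 0.766 to 0.867 in scaled CPM.

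Other genes of the same pathways, from lists that hold no member, passed in few cases. In males 0 of 10 interferon receptor and signalling genes, 0 of 30 other interferon-stimulated genes, 0 of 15 antigen processing genes and 0 of 13 nucleic acid sensors passed. Of 18 other complement factors, receptors and regulators 2 fell, where 3.44% of all genes tested passed (2.56% lower). They were Sez6, a neuronal complement inhibitor in the mouse, at a log2 fold change of -0.33 (SE 0.07, adjusted p = 0.0356), and Itgam, a chain of complement receptor 3 on microglia, at -0.43 (SE 0.10, 0.0432). Sez6 had 257, 259, 283 and 267 scaled CPM in CTRL males and 197, 205, 221 and 225 in PS males, without overlap. Neither Sez6 nor Itgam passed in males without LM25 and LM28, when no gene did. Slfn5, an interferon-stimulated gene, had 5.26, 4.24, 4.66 and 4.35 and 7.24, 5.34, 5.44 and 6.76, also without overlap, at 0.38 (adjusted p = 0.0909). The RNA editing enzyme gene Adar had 193, 209, 202 and 206 and 176, 189, 182 and 173, without overlap and lower, at -0.17 (0.0851).

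In females none of these lists had a gene that passed. Between PS females and PS males, 3 of 18 complement genes passed, where 13.1% of all genes tested did. All were higher in females, as were 7.58% of all genes: Sez6 (log2 0.33, adjusted p = 0.0133), Itgam (0.37, 0.0264) and Csmd2 (0.26, 0.0375). The effects in the sexes differed for Itgam (-0.52, adjusted p = 0.0492) and for Psme1, a subunit of the proteasome activator that interferon gamma induces (-0.46, 0.0471). They were 1 of 19 complement genes and 1 of 15 antigen processing genes, where 4.11% of all genes tested passed (2.79% lower). Psme1 had 28.3, 31.8, 32.5 and 30.9 scaled CPM in CTRL males and 23.5, 27.4, 27.5 and 26.1 in PS males, against 27.5, 24.9, 26.3 and 24.8 in CTRL females and 27.7, 30.5, 27.9 and 35.4 in PS females. PS males were under all CTRL males and PS females above all CTRL females, as for H2-DMa in males.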

How the data were processed

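RNA from 16 amygdala samples was sequenced with a directional polyA protocol. Per the submitters' notes and the study's methods, uniquely aligned reads were placed on mm10 with STAR, counted with featureCounts, and corrected for 2 factors of unwanted variation with RUVs and edgeR, with versions and gene annotation not given in the sources used here. The deposited read columns hold these corrected, rounded values and were treated as a score, not as counts. The deposited CPM values were computed by the authors from them. Columns of fold changes, p-values and FDR hold the authors' own comparisons and were not used.

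CPM values were scaled with TMM factors (0.95 to 1.047, computed in R from the published formula) and log2(scaled CPM + 0.5) was fitted with limma 3.58.1 in R 4.3.3 across all genes with a mean over 0.5 CPM in a compared group, with 1 mean per group over all 16 libraries. The 2 directions that the correction removed within groups were recovered from the values and kept as covariates, which left 10 residual degrees of freedom. P-values were adjusted with Benjamini-Hochberg over all genes tested, for 5 comparisons. Each group has 4 libraries, from different litters per the study's methods, and p-values measure the spread between these samples. The fits were tested on simulated data. Python 3.11.15, pandas 2.3.3, numpy 2.4.6 and matplotlib 3.10.9 were used for promoters and plots. Gene spans and exon lengths are from GENCODE M21 (GRCm38), which held 60 of the 62 members. In 29 members exons overlap those of another gene, in 18 on the opposite strand.

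Members and lists were chosen with earlier results of these data known. Genes given by library are role representatives, the members with the smallest adjusted p in each comparison (up to 4, and all that passed) and the 3 highest in mean CPM, except 1 gene that is not reported here. From the other pathway lists, up to 3 genes with the smallest adjusted p in a PS comparison could be named. Alternatives covered scaling, pseudocount, filter, covariates, variance prior, the samples fitted and each library left out. Leaving out LM25 and LM28 was added after seeing the data.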

Additional observations from a re-analysis of the deposited data

Results flagged for a closer look

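In 7 of the 100 groups of 4 libraries examined (25 members in 4 groups), 1 library lay far from the other 3 by Dixon's criterion, where chance gives about 1 in 20 groups, or 5. LM30, a PS female, was high for Irf7, at 0.823 scaled CPM against 0.349 to 0.405 in the other PS females, and for C1qa, at 12.8 against 11.8 to 11.9. Irf2bp2 had a low library in 3 groups: LM20 among CTRL males (27.5 scaled CPM, the others 30.9 to 31.5), LM27 among PS males (30.5, the others 33.9 to 34.2) and LM32 among PS females (21.9, the others 31.9 to 33.3). Irf8 was low in LM26, a PS male (2.15 scaled CPM against 2.71 to 2.82), and Stat5b in LM28, a PS male (7.26 against 8.50 to 8.64).

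H2-DMa had PS effects that differed between males and females, by -0.54 on the log2 scale, in the limma test of the difference itself.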

How the results depend on the processing

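No alternative turned the direction of a called value, and of the single-gene values 3180 kept their side of the threshold, 31 passed only under the alternative and 14 passed only without it. The number of members that passed for the PS effect in males, 1, was 0 with no filter on low values, 4 with the removed directions left out of the model, 6 with only the compared groups fitted, 0 without LM25 and LM28, and 0 to 3 when each library was left out. For PS females against PS males it was 3, then 5 with the removed directions left out, 4 with no filter (Ifitm1 added), 2 with only the compared groups fitted, 2 without LM25 and LM28, and 3 to 7 over single libraries left out, with the members' median, -0.04, between -0.12 and -0.0072. For the difference between the sexes' effects it was 1, then 2 with the deposited CPM unscaled, 0 with no filter, 2 with the removed directions left out, 0 with no mean trend in the variance prior, and 0 to 4 over single libraries left out. The cause of these shifts was not tested. Over all genes the calls ranged from 0 to 1920 for the PS effect in males, from 1107 to 3181 for PS females against PS males and from 10 to 1720 for the difference between effects. With CPM unscaled the median of all genes in males was 0.06 rather than 0.01, and the C1q genes kept their sign, at -0.13 for C1qa, -0.12 for C1qb and -0.11 for C1qc. No paired analysis was possible because each library carries a number of its own. Values under 1 CPM rest on few reads, which limits Irf7, Ifit3, Gbp2 and H2-M3 in particular.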
